A study of Thermothelomyces thermophilus with 4 samples.

Results

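Transcripts of 5 enzymes that act on xylan, the main hemicellulose of straw, were followed in Myceliophthora thermophila (Thermothelomyces thermophilus), a heat-loving mould that degrades plant matter, grown on 4 crop straws. The models are 112050 (locus tag MYCTH_112050), a xylanase of glycoside hydrolase family GH10, 49824, 56237 and 89603, xylanases of GH11, and 55982, an arabinofuranosidase of GH62. They were chosen by their model numbers and are 5 of the 9110 models in the deposited table. The family names come from the list that chose them, since neither the table nor the gene reference describes products, so no family could be checked here. Polyadenylated RNA was taken from mycelium grown from spores at 45 °C, shaken at 150 rpm in a defined medium with 2% oat, triticale, canola or flax straw, with 1 library for each straw and no replicate culture. The oat, triticale and flax cultures were 24 h old and the canola culture was 30 h old, so canola straw and the longer culture cannot be told apart.

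Xylan is a chain of linked xylose units. In grasses such as oat and triticale the chain typically carries many arabinose side groups, while the xylan of dicots such as canola and flax carries mainly glucuronic acid and little arabinose. Endo-xylanases cut the chain inside. As a rule GH11 enzymes prefer stretches without side groups, GH10 enzymes also cut near them, and GH62 enzymes take arabinose off the chain.

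All 5 transcripts were more abundant on the cereal straws than on the dicot straws, by 3.15 to 156 times over the genes and pairs of straws. Together they took 0.723% of the reads on oat (95% Clopper-Pearson interval 0.717% to 0.730%) and 0.713% on triticale (0.707% to 0.720%). The share was 0.0670% on canola (0.0652% to 0.0688%) and 0.0376% on flax (0.0362% to 0.0390%). The cereal shares were thus close to each other, and flax gave the lowest. These are shares of the messenger RNA of a whole culture, so fewer hyphae with a transcript and less of it in each hypha cannot be told apart. Levels below are in FPKM, which is reads per 1000 bases of gene, scaled to the reads assigned in each library, with 95% Poisson intervals, and ratios of FPKM have 95% Clopper-Pearson intervals. All intervals cover counting error only.

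The GH11 xylanase MYCTH_49824 (model 49824) had the highest cereal levels of the 5. It stood at 2720 FPKM with oat straw (2680 to 2760) and 3656 with triticale straw (3607 to 3705). With canola straw it stood at 74.1 (67.9 to 80.6) and with flax straw at 23.4 (20.0 to 27.2). Both cereal libraries were far above both dicot libraries, and triticale was the highest. Among all 9110 models it ranked 16 on oat and 15 on triticale, but 1464 on canola and 3904 on flax. Its FPKM on triticale was 49.4 times that on canola (45.3 to 53.9) and 156 times that on flax (134 to 183).

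MYCTH_89603 (model 89603), the second GH11 xylanase, reached 2185 FPKM with oat straw (2146 to 2223) and 1989 with triticale straw (1951 to 2029). The value was 188 with canola straw (178 to 199) and 109 with flax straw (101 to 118). The libraries again fell into a high cereal pair and a low dicot pair. It ranked 22 on oat and 27 on triticale, and it was still among the 1000 most abundant models on the dicot straws, at 533 on canola and 933 on flax. Its FPKM on oat was 11.6 times that on canola (10.9 to 12.3) and 20.0 times that on flax (18.5 to 21.7).

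MYCTH_56237 (model 56237), the third GH11 xylanase, was the least abundant of the 5 on every straw. It had 76.5 FPKM with oat straw (69.6 to 83.9) and 97.0 with triticale straw (88.7 to 106). It had 7.45 FPKM with canola straw (5.49 to 9.87) and 4.04 with flax straw (2.64 to 5.93). The dicot values rest on 48 reads on canola and 26 on flax. Both cereal libraries were above both dicot libraries, as for each of the 5 genes. How reads shared by related genes were counted is not given in the sources used here, and no sequences were compared. If this weakly expressed gene has close relatives, its level, its ratio to them and the likeness of their profiles are uncertain.

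The GH10 xylanase MYCTH_112050 (model 112050) showed the smallest difference. Its level was 1054 FPKM with oat straw (1035 to 1072), 773 with triticale straw (756 to 790), 245 with canola straw (237 to 254) and 159 with flax straw (152 to 166). Here too the cereal pair lay above the dicot pair, but this transcript stayed well expressed on the dicot straws, at rank 406 of all models on canola and 588 on flax. Its FPKM on oat was 4.29 times that on canola (4.13 to 4.47) and 6.63 times that on flax (6.32 to 6.95).

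The GH62 arabinofuranosidase MYCTH_55982 (model 55982) was at 1364 FPKM with oat straw (1337 to 1392) and 990 with triticale straw (965 to 1014). It was at 58.8 with canola straw (53.5 to 64.5) and at 11.97 with flax straw (9.65 to 14.7). It moved from rank 43 on oat and 105 on triticale to 1832 on canola and 5678 on flax. The flax value rests on 92 reads. Its FPKM on oat was 23.2 times that on canola (21.1 to 25.6) and 114 times that on flax (92.8 to 141).

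**Figure D1:**
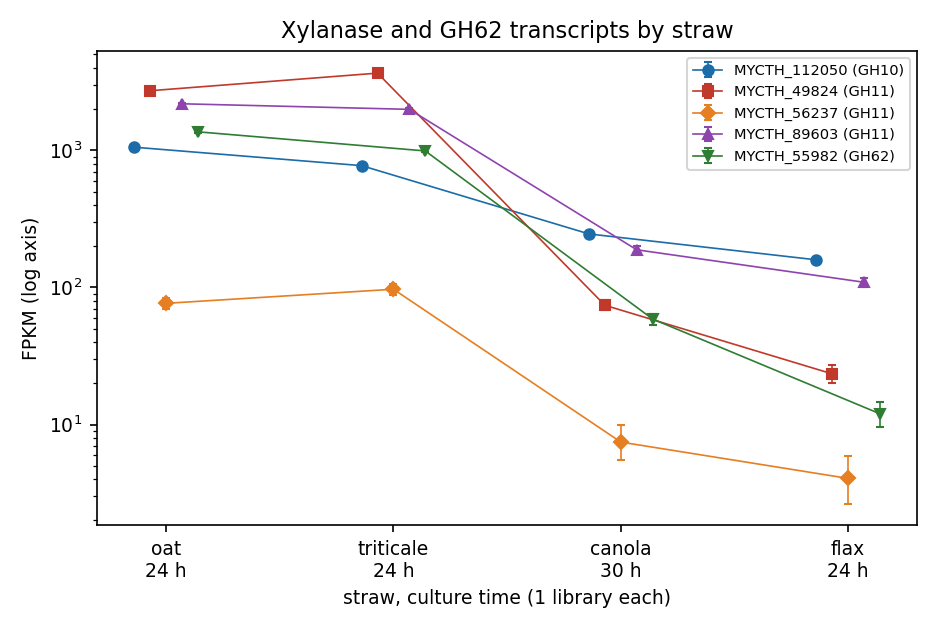
FPKM (log axis) of the 5 models on each straw, 1 point per library with its 95% Poisson counting interval; the lines only link the points of a model. Every model is higher on oat and triticale than on canola and flax, with MYCTH_49824 spanning 3656 FPKM on triticale to 23.4 on flax and MYCTH_112050 spanning 1054 on oat to 159 on flax.

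The comparison of cereal with dicot straws asks how the response of the fungus depends on the kind of plant biomass. The labels do not group the straws, and the classes used here are botanical. For all 5 genes the lower cereal library was above the higher dicot library, a separation that 20.0% of the 8230 tested models showed in the same direction. The distance was at least 2-fold for all 5 on the scale of FPKM + 1, against 1.09% of the tested models. It was at least 4-fold for 4 of the 5, against 0.365%, and at least 8-fold for the same 4, against 0.170%. The GH10 gene MYCTH_112050 was the exception, with a distance of 3.14-fold. The distance was 36.2-fold for MYCTH_49824, 16.6-fold for MYCTH_55982, 10.5-fold for MYCTH_89603 and 9.18-fold for MYCTH_56237, and these 4 held the places 2, 5, 9 and 12 among all tested models. All 5 passed the filter on low values (a mean of 1 FPKM), and each was above 1 FPKM on every straw.

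With the straw as the unit, limma was fitted to log2(FPKM + 1) of all tested models. Expressed as log2 of cereal over dicot, the ratio was 6.20 ± 0.48 (SE) for MYCTH_49824 and 5.38 ± 0.60 for MYCTH_55982. It was 3.85 ± 0.33 for MYCTH_89603, 3.74 ± 0.39 for MYCTH_56237 and 2.19 ± 0.32 for MYCTH_112050. The median of the 5 ratios was 3.85, while the median over all tested models was -0.11. Relative to that median model the 5 ratios ranged from 2.30 to 6.31. The limma adjusted p over all models was 0.00187 for MYCTH_49824, 0.00311 for MYCTH_89603, 0.00560 for MYCTH_56237, 0.00733 for MYCTH_55982 and 0.0221 for MYCTH_112050. All 5 thus passed the threshold of 0.05, as did 0.547% of the tested models in this direction. The spread behind these SE and p-values is that between 2 straws within a class, since no culture was replicated. It is not each gene's own spread alone. limma pooled it in part with that of all tested models (8.51 total degrees of freedom, 2 of them residual). The genes were picked with earlier results of these data known. The calls were lost without the oat or the triticale library, which leaves 1 cereal library, as were those of every other model. The log2 ratios then ran from 1.96 to 6.42 without oat and from 2.41 to 5.99 without triticale. With no filter on low values the calls were lost too (limma adjusted p = 0.310 to 0.408), and limma called 0 of 9110 models in either direction. Without the mean-variance trend MYCTH_112050 (limma adjusted p = 0.111) and MYCTH_55982 (0.0505) did not pass and the other 3 did. The direction held in each of these fits.

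**Figure D2:**
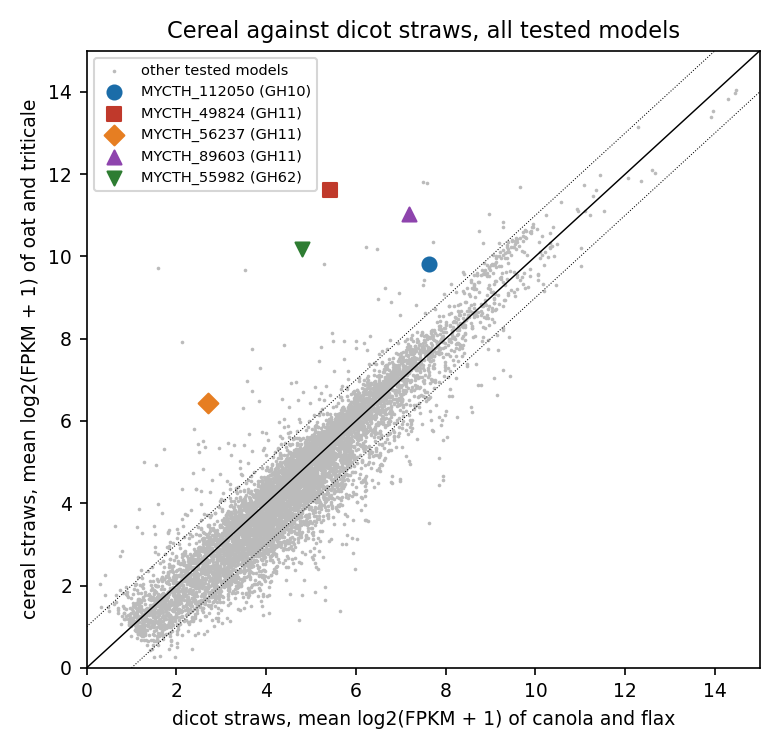
Mean log2(FPKM + 1) on the cereal straws (oat and triticale) against that on the dicot straws (canola and flax), 1 point per tested model; the solid line marks equal values and the dotted lines a 2-fold difference. The 5 enzymes lie above the upper dotted line, MYCTH_112050 nearest to it (2.19 above equality) and MYCTH_49824 farthest (6.20).

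The 5 genes were at least 2-fold higher in each single pair of a cereal with a dicot straw. The shares of all tested models that were so were 2.60% for oat over canola, 5.26% for oat over flax, 3.13% for triticale over canola and 5.29% for triticale over flax. These pairs share libraries, so they are not separate evidence. Among the 3 cultures of 24 h, 3.39% of the tested models were at least 2-fold higher on both cereal straws than on flax, the 5 genes among them. Leaving out canola could not undo their separation, since both cereal libraries were already above both dicot libraries. The oat, triticale and flax cultures were all 24 h old, so culture time did not differ between the cereal straws and flax. Only the comparisons with canola join the straw with the longer culture. Without the 30 h canola culture the log2 ratio was 7.01 for MYCTH_49824, 6.49 for MYCTH_55982 and 4.24 for MYCTH_89603. It was 4.11 for MYCTH_56237 and 2.50 for MYCTH_112050. Each is larger than with canola, as it must be, since all 5 were lower on flax than on canola.

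Oat and triticale differed little from each other for these genes, and not in one direction. The ratio of oat to triticale FPKM was 1.38 for MYCTH_55982 (1.34 to 1.42), 1.36 for MYCTH_112050 (1.33 to 1.40) and 1.10 for MYCTH_89603 (1.07 to 1.13). Triticale was the higher for MYCTH_49824, by 1.34 times (1.32 to 1.37), and for MYCTH_56237, by 1.27 times (1.11 to 1.44). None of the 5 was 2-fold apart. Of the tested models 14.2% were at least 2-fold higher on oat and 0.352% on triticale. Most models were thus not 2-fold apart either, and the count does not set these genes apart. The median model was 1.14 times as high on oat as on triticale, on the scale of FPKM + 1. Under median centring, which raises triticale against the rest, the order turned for MYCTH_89603 (log2 ratio of oat to triticale 0.13 as deposited, -0.22 centred). The same centring brought MYCTH_112050 and MYCTH_55982 to 0.088 and 0.11, from 0.45 and 0.46.

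Between the dicot straws all 5 were higher on canola than on flax, while 48.2% of the tested models were. The canola over flax ratio of FPKM was 4.91 for MYCTH_55982 (3.92 to 6.21) and 3.16 for MYCTH_49824 (2.66 to 3.79), and these 2 were past 2-fold, as were 7.91% of the tested models. It was 1.84 for MYCTH_56237 (1.12 to 3.09), 1.73 for MYCTH_89603 (1.57 to 1.90) and 1.54 for MYCTH_112050 (1.46 to 1.63). The canola culture was also the older one (30 h against 24 h), and with 1 library each the straw and the time cannot be told apart in these ratios.

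**Figure D3:**
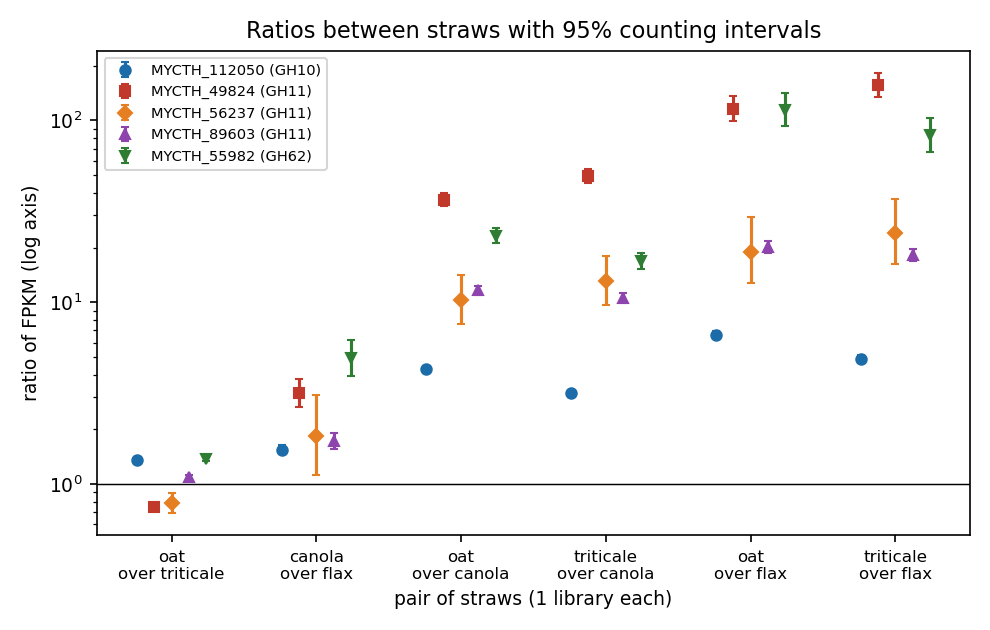
Ratio of FPKM between each pair of straws for the 5 models (log axis), 1 library per straw, with 95% Clopper-Pearson counting intervals; the line marks a ratio of 1. Oat over triticale lies between 0.744 and 1.38, canola over flax between 1.54 and 4.91, and the cereal over dicot pairs between 3.15 and 156.

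The make-up of the group differed between the cereal and the dicot straws. On both cereal straws the order of FPKM was MYCTH_49824, MYCTH_89603, MYCTH_55982, MYCTH_112050 and MYCTH_56237, and the counting intervals of neighbours did not overlap. On both dicot straws it was MYCTH_112050, MYCTH_89603, MYCTH_49824, MYCTH_55982 and MYCTH_56237, again with no overlap of neighbours. The GH10 gene was thus second to last on the cereal straws and at the top on the dicot straws. It made up 14.2% of the summed FPKM of the 5 on oat and 10.3% on triticale, but 42.8% on canola and 51.7% on flax. The 3 GH11 genes made up 67.3% on oat and 76.5% on triticale, but 47.0% with canola and 44.4% with flax. For the GH62 gene the shares were 18.4%, 13.2%, 10.2% and 3.89%, in the order oat, triticale, canola and flax.

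A ratio of 2 genes within a library does not depend on how libraries are scaled to each other. The FPKM of the GH11 gene MYCTH_49824 was 2.58 times that of the GH10 gene MYCTH_112050 on oat (2.52 to 2.64) and 4.73 times on triticale (4.61 to 4.85). On canola it was 0.302 times (0.275 to 0.331) and on flax 0.147 times (0.125 to 0.172). The cereal and dicot values did not overlap. An exact two-sided permutation test of 2 libraries against 2 gives p = 0.333 here, the smallest it can give, so it cannot decide. These genes also had the largest and the smallest cereal over dicot ratio of the group. The ratio of the GH11 genes MYCTH_89603 to MYCTH_56237 was far steadier, at 28.5 with oat (26.0 to 31.4), 20.5 with triticale (18.8 to 22.5), 25.3 with canola (18.9 to 34.5) and 27.0 with flax (18.2 to 41.6). These ratios are per gene length with introns, so their level may be off where introns are long, while their order over straws is not affected.

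**Figure D4:**
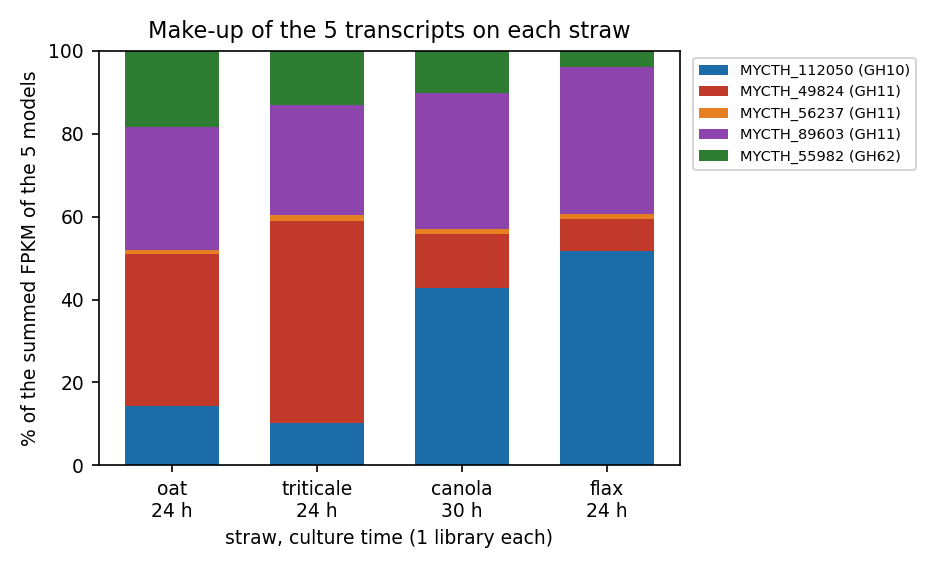
Share of each model in the summed FPKM of the 5, for each straw (1 library each, bars add to 100%). The GH10 share is 14.2% and 10.3% on oat and triticale and 42.8% and 51.7% on canola and flax, while MYCTH_89603 stays between 26.5% and 35.5%.

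Profiles over the 4 libraries were compared after centring each gene on its own mean. MYCTH_56237 and MYCTH_89603, both GH11, differed by a root mean square of 0.18 on the log2 scale, and each was the second nearest of the other's 6005 models with a mean of at least 10 FPKM. MYCTH_49824 and the GH62 gene MYCTH_55982 differed by 0.56, at places 3 and 4 of each other's lists. MYCTH_49824 differed by 1.23 from MYCTH_89603 and by 1.27 from MYCTH_56237, both of its own family, and these were at places 8 and 10 of its list. MYCTH_112050 and MYCTH_49824 differed by 2.06. That was place 39 in the list of MYCTH_49824 and place 5896 in that of MYCTH_112050. Each profile has 4 points from the same 4 libraries, so these distances are a description.

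Outside the group, the nearest profile to MYCTH_89603 and also to MYCTH_56237 was that of MYCTH_2313146, whose FPKM was 1205 with oat, 1116 with triticale, 119 with canola and 65.2 with flax (root mean square difference 0.083 and 0.17). Next came MYCTH_99786 for MYCTH_89603 (0.21) and MYCTH_2305759 for MYCTH_56237 (0.23). MYCTH_49824 and MYCTH_55982 shared their nearest models, MYCTH_54058 and MYCTH_43727. MYCTH_54058 was at 888 FPKM with oat, 749 with triticale, 23.8 with canola and 4.34 with flax, and it differed by 0.32 from MYCTH_49824 and by 0.39 from MYCTH_55982. MYCTH_43727 differed by 0.39 and 0.23 from them. The nearest to MYCTH_112050 were MYCTH_112399 (0.080), with 265, 226, 64.0 and 42.4 FPKM in the same order of straws, and MYCTH_43671 (0.16). The sources used here give no product for any of these models.

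The 5 genes do not lie side by side. MYCTH_112050, MYCTH_56237 and MYCTH_55982 are on the same chromosome of the reference, with 284 to 950 genes between them, and the other 2 are on other chromosomes. Their 20 nearest neighbours, 2 on either side of each gene, did not overlap them, so none shares bases with an enzyme gene. Of these 20, 1 is not in the table and 2 were below the filter. Among the 17 neighbours tested, 3 were at least 2-fold higher on both cereal straws and 1 on both dicot straws (1.09% and 1.82% of all tested models). The first 3 were MYCTH_49210, next to MYCTH_49824, MYCTH_2307922, 2 places from MYCTH_56237, and MYCTH_95473, 2 places from MYCTH_112050. MYCTH_49210 was at 166 FPKM with oat, 186 with triticale, 27.2 with canola and 45.1 with flax, and its log2 ratio of cereal to dicot was 2.29 (limma adjusted p = 0.0173). Unlike its xylanase neighbour it was higher on flax than on canola. MYCTH_2307922 also passed, with a log2 ratio of 2.40 (limma adjusted p = 0.0354), and MYCTH_95473 did not, at 1.78 (0.130). MYCTH_2307924, on the other side of MYCTH_56237, was the one higher on both dicot straws, at -2.54 (limma adjusted p = 0.114).

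The list of other xylan-degrading enzymes, to be read from product descriptions, matched 0 models, since no description is given in the sources used here. Of the genes with a symbol, 2 encode enzymes of plant cell wall breakdown with levels in the range of these 5. The first, cbdA (MYCTH_111388), is a cellobiose dehydrogenase that works with oxidative enzymes on cellulose. Its level was 807 FPKM with oat, 498 with triticale, 267 with canola and 119 with flax, with a cereal over dicot log2 ratio of 1.82 ± 0.41 (SE, limma adjusted p = 0.120). The second, ganA (MYCTH_43163), is an endo-galactanase that acts on pectic galactan. It was at 142 FPKM with oat, 131 with triticale, 275 with canola and 91.5 with flax, highest on canola, with a log2 ratio of -0.22 ± 0.46 (SE, limma adjusted p = 0.864). Both ratios were below those of the 5 xylan enzymes, but that of cbdA was close to that of MYCTH_112050 (2.19 ± 0.32, SE). These differences were not tested.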

How the data were processed

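The authors deposited 1 table of FPKM values with a length per gene model; how reads were aligned and counted, and on which build, is not given in the sources used here. FPKM times length summed to the same total in every column and gave whole reads for 100% of values (tolerance 0.001 read), so reads were recovered: 6495371 (triticale) to 7977329 (canola) per library. Per the file headers the length is another column, and 9075 of the 9087 models matched to the RefSeq gene table (assembly ASM22609v1) had its span, introns included. Since no build is named, no positions are given.

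The analysis used 8230 models with a mean of at least 1 FPKM on the log2(FPKM + 1) scale (880 were left out). Low changes are understated on that scale. Classes were compared with a fold rule and with limma 3.58.1 in R 4.3.3 (mean-variance trend, Benjamini-Hochberg, 2 residual degrees of freedom). A pair of straws has no test. The 5 models named, and the choice of tests, were made with earlier results of these data known. The text names the 5 models, for each the 2 models of most like profile, and those of its 2 neighbours on either side that passed a rule. Protein alignments between the enzymes were planned, and protein sequences were not used here.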

Additional observations from a re-analysis of the deposited data

How the results depend on the processing

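The count of 5 genes at least 2-fold higher on cereal straws was the same under a pseudocount of 10, median centring, upper-quartile scaling, removal of the length trend and with each library left out. Leaving out a library can only widen that gap or keep it. The share of all tested models that were so was 1.09% in the main setting. It ran from 0.705% (pseudocount of 10) to 3.39% (without canola) in the others. At a 4-fold threshold the count was 4 genes, against 0.365% of the tested models.

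The limma calls over all models (45 cereal-higher and 10 dicot-higher) depended on the processing. They were 151 and 275 under median centring, 70 and 50 under upper-quartile scaling, 109 and 161 with the length trend removed, and 16 and 1 without the mean-variance trend. With no filter on low values limma called 0 and 0, with 348 and 501 models under 0.05 before adjustment. Leaving out each library in turn gave calls that ran from 0 to 165 and from 0 to 283. In those fits the lone straw is assumed to vary like the pair of the other class.

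The log2 ratio of cereal to dicot kept its sign for the 5 genes in all these fits. Without a filter none passed, at ratios of 2.19 (MYCTH_112050), 6.20 (MYCTH_49824), 3.74 (MYCTH_56237), 3.85 (MYCTH_89603) and 5.38 (MYCTH_55982). Without the trend MYCTH_112050 (2.19, limma adjusted p = 0.111) and MYCTH_55982 (5.38, 0.0505) did not pass. Over the fits with all libraries the limma adjusted p ran from 5.99e-05 to 0.408 for MYCTH_112050 and from 1.01e-33 to 0.408 for MYCTH_55982. The lowest values come from median centring, where limma pooled the spread over all models (16460 degrees of freedom). With 1 library left out the ratios ran from 1.87 to 2.50 (MYCTH_112050), 5.39 to 7.01 (MYCTH_49824), 3.37 to 4.11 (MYCTH_56237), 3.46 to 4.24 (MYCTH_89603) and 4.28 to 6.49 (MYCTH_55982). With a pseudocount of 10 the ratio of MYCTH_56237, the lowest gene, was 2.62.

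For oat over triticale, median centring gave log2 ratios of 0.088 (MYCTH_112050), -0.78 (MYCTH_49824), -0.70 (MYCTH_56237), -0.22 (MYCTH_89603, turned) and 0.11 (MYCTH_55982). Upper-quartile scaling gave -0.47 for MYCTH_49824 and 0.095 for MYCTH_89603. Removal of the length trend gave 0.18 for MYCTH_112050, -0.37 for MYCTH_49824 and 0.21 for MYCTH_89603. For canola over flax, a pseudocount of 10 gave 1.33 for MYCTH_49824 and 1.65 for MYCTH_55982, and upper-quartile scaling 0.54 for MYCTH_112050. A pseudocount of 1, added after the data were seen, left all 10 ratios within their counting intervals.

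The share of the 5 genes was 1.18%, 1.14%, 0.0918% and 0.0476% of summed FPKM on oat, triticale, canola and flax. It was 0.773%, 0.762%, 0.0715% and 0.0415% of reads without the 10 models with the most reads. The causes of these shifts were not tested. Depth limits MYCTH_56237 on flax most, at 26 reads. No paired analysis was possible because each straw has 1 library.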
